A study of Canis lupus familiaris with 13 samples.

Results

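The regulators described here are 10 genes that control fatty acid use and the building of mitochondria: the receptors PPARA, PPARD and PPARG with their partner RXRA, the coactivators PPARGC1A and PPARGC1B, the estrogen-related receptors ESRRA and ESRRG, and the mitochondrial factors NRF1 and TFAM. They were taken by symbol from a table of 30951 genes of dog biceps femoris, a thigh muscle. Each symbol had 1 row, all 10 were found, and all 10 passed the filter on low counts that left 14629 genes. RNA sequencing gave 13 libraries from biopsies of 4 wild-type dogs aged 9 to 10 months. The insulin-stimulated group held sample 1 of all 4 dogs, sample 2 of all 4 dogs and sample 3 of dogs 1 and 2, which made 10 libraries. The basal group held sample 0 of dogs 2, 3 and 4, which made 3 libraries. What the sample number stands for, the breed and the insulin dose are not given in the sources used here.

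PPARs are nuclear receptors that bind fatty acids and related lipids, pair with a retinoid X receptor on DNA and switch on genes of lipid transport and oxidation. PGC-1 proteins do not bind DNA themselves. They dock on PPARs, on estrogen-related receptors and on NRF1, and in muscle they are best known for linking exercise and fasting to mitochondrial growth. NRF1 activates nuclear genes of the respiratory chain and the gene of TFAM, which packages and transcribes mitochondrial DNA.

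Library totals ranged from 45200416 to 81948641 counts, above the approximate depth that the labels give. Whether a count is a read or a fragment was not settled here. The skeletal muscle actin ACTA1 made up 18.4% of all reads counted in dog 1 sample 2, against 10.4% to 13.7% elsewhere. That library was also the least like the rest, with a mean Pearson r of 0.957 across genes. The muscle creatine kinase CKM had 51204 to 122130 CPM over the 13 libraries, where CPM scales counts to the TMM-adjusted library total. These are biopsies of mixed cells, so fewer cells of a type and less RNA per cell cannot be told apart. Transcript lengths were not used here, so levels are compared between libraries and not between genes.

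PPARGC1A (ENSCAFG00000016519), the coactivator PGC-1alpha, had the highest fold change of the 10 regulators in insulin over basal libraries, and it did not pass the threshold. It had 72.8 CPM in dog 1 sample 1, 67.0 CPM in sample 2 and 63.9 CPM in sample 3, and dog 1 had no basal library. In dog 2 it had 38.6 CPM in sample 1, 71.7 CPM in sample 2 and 38.6 CPM in sample 3, against 38.2 CPM in the basal library. In dog 3 it had 62.3 CPM in sample 1 and 67.2 CPM in sample 2, against 28.3 CPM in the basal library. In dog 4 it had 60.3 CPM in sample 1 and 56.0 CPM in sample 2, against 40.6 CPM in the basal library. Insulin libraries of dog 2 samples 1 and 3 thus lay at the basal level, while the other 8 lay above all 3 basal libraries.

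Over groups, PPARGC1A averaged 59.8 ± 12.3 CPM in insulin libraries (SD, n = 10) and 35.7 ± 6.50 CPM in basal libraries (SD, n = 3). Insulin over basal gave a log2 fold change of 0.67 ± 0.21 (SE), a fold of 1.59 with a 95% interval of 1.16 to 2.18 that is not adjusted for the number of genes. With edgeR's quasi-likelihood test the p was 0.00759, and 1.16% of the genes tested had a lower one, so the Benjamini-Hochberg adjusted p was 0.650. All 7 insulin libraries with a basal partner were above the basal library of their own dog, which held for 2.69% of all genes tested, and 2 of the 7, both of dog 2, were higher by only 0.01 and 0.02 on the log2(CPM + 0.5) scale. The log2 fold change was 0.45 without the basal library of dog 3 and 0.84 without that of dog 2. Counting all reads of the gene does not separate the isoforms of PGC-1alpha.

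Neutrophil markers had negative log2 fold changes in the same comparison for 5 of 5 tested genes, with a median of -1.46. Of the 5, 0 passed the threshold. The 6 neutrophil genes in the table, 1 of them not tested, summed to 23.2 to 64.5 CPM in insulin libraries and 30.8 to 73.6 CPM in basal libraries, and their part in the difference of PPARGC1A was not tested. Slow fibre markers summed to 22859 to 47349 CPM in insulin libraries and to 21313 to 53446 CPM in basal libraries, so these ranges overlapped widely. Fibroblast and matrix markers were negative for 8 of 9 genes (median -0.34). Smooth muscle and pericyte markers were positive for 8 of 9 (median 0.23), and 0 were called in either list. The basal library of dog 3, lowest in PPARGC1A, had 2984 CPM of fibroblast markers, against 338 to 1216 CPM in insulin libraries. It also had the highest neutrophil, endothelial and macrophage sums and the lowest muscle fibre sum. The part of these cells was not tested.

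**Figure D1:**
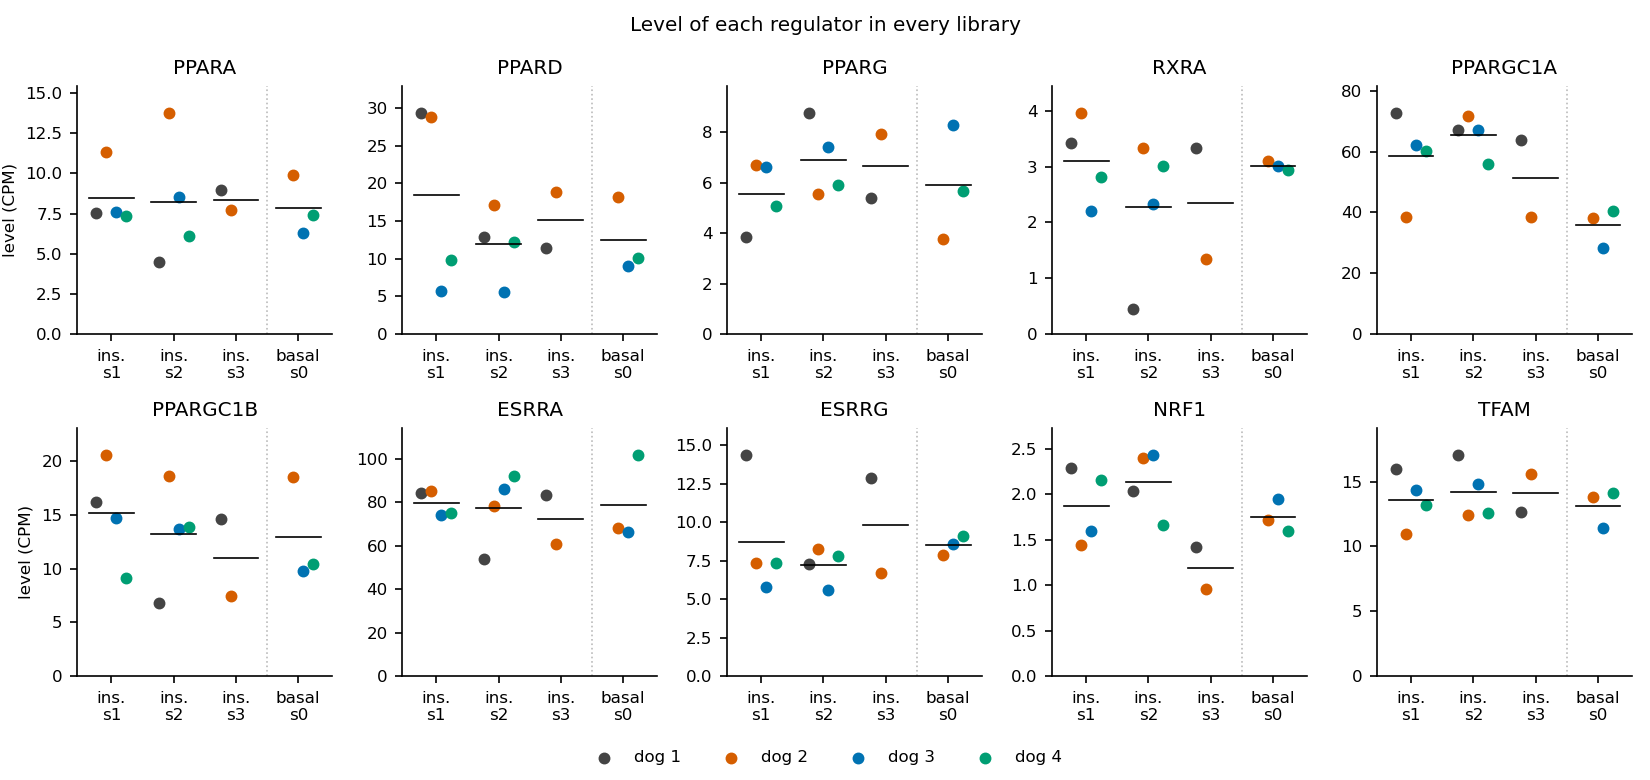
Level of each regulator in CPM in every library, with insulin samples 1 to 3 (ins. s1 to s3) left of basal sample 0, dogs by colour and a line at each group's mean. PPARGC1A is the only panel in which every library of insulin sample 2 (56.0 to 71.7 CPM) lies above every basal library (28.3 to 40.6 CPM).

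By sample number, PPARGC1A averaged 58.5 ± 14.4 CPM in sample 1 (SD, n = 4), 65.5 ± 6.65 CPM in sample 2 (SD, n = 4) and 35.7 ± 6.50 CPM in sample 0 (SD, n = 3). The log2 fold change was 0.60 ± 0.23 (SE) in sample 1 over sample 0 (edgeR adjusted p = 1) and 0.80 ± 0.23 (SE) in sample 2 over sample 0 (edgeR adjusted p = 0.656). Both comparisons use the same 3 basal libraries. Sample 2 did not overlap sample 0 for PPARGC1A, which was the case for 1 of the 10 regulators and for 5.48% of all genes tested. Sample 2 over sample 1 gave 0.19 ± 0.20 (SE; edgeR adjusted p = 0.903). The groups overlapped in sample 1 against sample 0, where 3.66% of genes did not, and in sample 2 against sample 1, where 1.9% did not.

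PPARGC1B (ENSCAFG00000018275), the related coactivator PGC-1beta, had 6.80, 14.3 and 20.6 CPM as the lowest, median and highest insulin libraries, against 9.81, 10.5 and 18.6 CPM in the basal libraries of dogs 3, 4 and 2. The groups overlapped. Insulin over basal gave a log2 fold change of 0.11 ± 0.32 (SE; edgeR adjusted p = 1), and its interval reached from a fold of 0.670 to one of 1.73. The 2 lowest libraries were dog 1 sample 2 with 6.80 CPM and dog 2 sample 3 with 7.41 CPM. With 0.5 CPM added to each level, dog 2 sample 3 had 0.415 times the level of the basal library of the same dog. The other 6 paired insulin libraries, with the same addition, were between 0.881 and 1.48 times theirs.

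The ratio of PPARGC1A to PPARGC1B counts is free of the scaling of libraries. It ran from 1.87 to 9.84 in insulin libraries and was 2.06, 2.89 and 3.88 in the basal libraries of dogs 2, 3 and 4. It was above the basal value of the same dog in 6 of 7 paired insulin libraries, the exception being dog 2 sample 1 with 1.87. The highest ratio, 9.84, was in dog 1 sample 2, where PPARGC1B was lowest.

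The 3 PPAR genes showed no difference beyond their spread between insulin and basal libraries. PPARA (ENSCAFG00000000788), the receptor best known for fatty acid oxidation, averaged 8.35 ± 2.61 CPM in insulin libraries (SD, n = 10) and 7.87 ± 1.86 CPM in basal libraries (SD, n = 3). Its log2 fold change was 0.12 ± 0.23 (SE; edgeR adjusted p = 1), with a 95% interval of 0.766 to 1.54 for the fold. Dog 2 held its 3 highest libraries, with 13.8 CPM in sample 2, 11.3 CPM in sample 1 and 9.92 CPM in the basal library, while dog 2 sample 3 had 7.72 CPM.

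PPARD (ENSCAFG00000001310), the PPAR known in muscle for endurance and oxidative fibres, varied most of the 10 over the 13 libraries, with an SD of 0.72 on the log2(CPM + 0.5) scale. The median over all genes tested was 0.32, and 4.88% of genes had a larger SD than PPARD. Levels differed between dogs. It had 5.63 and 5.76 CPM in dog 3 and 9.83 and 12.3 CPM in dog 4 under insulin, and 8.99 and 10.1 CPM in the basal libraries of these dogs. In dog 2 it had 28.8, 17.1 and 18.8 CPM in samples 1, 2 and 3, against 18.2 CPM in the basal library, and in dog 1 it had 29.4, 12.9 and 11.4 CPM in samples 1, 2 and 3. All libraries of dogs 1 and 2 but 1 thus lay above those of dogs 3 and 4, the exception being dog 1 sample 3 with 11.4 CPM below dog 4 sample 2 with 12.3 CPM.

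Between insulin and basal libraries PPARD had a log2 fold change of -0.10 ± 0.29 (SE; edgeR adjusted p = 1). With no term for the dog it was 0.29 ± 0.45 (SE), and the cause of the turn was not tested. Sample 2 over sample 1 gave -0.44 ± 0.27 (SE; edgeR adjusted p = 0.902), with lower values in sample 2 for dogs 1, 2 and 3 and a higher value for dog 4.

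PPARG (ENSCAFG00000004991), the master regulator of fat cells, averaged 6.32 ± 1.46 CPM in insulin libraries (SD, n = 10) and 5.89 ± 2.27 CPM in basal libraries (SD, n = 3). The log2 fold change was 0.18 ± 0.27 (SE; edgeR adjusted p = 1) and its direction turned to -0.14 without the basal library of dog 2, which held the lowest level, 3.75 CPM. In dog 2 the insulin libraries had 6.71, 5.56 and 7.91 CPM in samples 1, 2 and 3, all above that basal library. In dog 3 the insulin libraries had 6.61 and 7.40 CPM, both below the 8.26 CPM of the basal library.

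The 8 of 10 fat cell markers found summed to 21.98 to 55.5 CPM in insulin libraries and to 19.7, 34.3 and 98.0 CPM in basal libraries, the highest being dog 3. PLIN1, the coat protein of fat cell droplets, had 0.530 to 4.00 CPM in insulin libraries and 0.0785, 20.1 and 0.393 CPM in the basal libraries of dogs 2, 3 and 4. The hormone gene LEP had 0 counts in the basal libraries of dogs 2 and 4 and in dog 2 sample 2. The dog 3 basal library, highest in fat cell markers, had the second highest PPARG level of the 13 libraries. The highest PPARG level, 8.77 CPM, was in dog 1 sample 2. There PLIN1 had 4.00 CPM, while the fat cell markers together had 41.1 CPM, against a median of 41.6 CPM in insulin libraries. What part fat cells had in the level of PPARG was not tested. Adiponectin, looked up as ADIPOQ, was not among the 8 markers found.

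RXRA (ENSCAFG00000019838), a partner with which PPARs bind DNA, was nearly the same in the 3 basal libraries (3.11, 3.01 and 2.93 CPM in dogs 2, 3 and 4) and spread widely under insulin. The insulin libraries had a lowest level of 0.452 CPM, a median of 2.91 CPM and a highest level of 3.97 CPM. The lowest, in dog 1 sample 2, rested on 30 counts (exact Poisson 95% interval 20.2 to 42.8, counting error only and taking each count as an independent read), against 226 and 221 counts in samples 1 and 3 of the same dog. Dog 2 sample 3 was next with 1.35 CPM, and all other insulin libraries had 2.20 to 3.97 CPM. The log2 fold change was -0.18 ± 0.47 (SE; edgeR adjusted p = 1), the widest error of the 10. Insulin sample 2 over sample 1 gave -0.50 ± 0.53 (SE), which was 0.06 without dog 1 sample 2.

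ESRRA (ENSCAFG00000014455), the estrogen-related receptor through which PGC-1alpha acts on respiratory genes, averaged 77.3 ± 11.9 CPM in insulin libraries (SD, n = 10) and 78.9 ± 20.0 CPM in basal libraries (SD, n = 3). Its log2 fold change was 0.03 ± 0.18 (SE; edgeR adjusted p = 1), with a 95% interval of 0.780 to 1.34 for the fold. The highest library was the basal one of dog 4 with 102 CPM, and the lowest was dog 1 sample 2 with 53.9 CPM.

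ESRRG (ENSCAFG00000010767), the form tied to oxidative and slow fibres in mouse muscle, had negative differences in 6 of 7 paired insulin libraries, and 11.1% of genes tested had at least 6 negative. In dog 3 it had 5.78 CPM in sample 1 and 5.59 CPM in sample 2, against 8.56 CPM in the basal library. In dog 4 it had 7.33 CPM in sample 1 and 7.83 CPM in sample 2, against 9.10 CPM in the basal library. In dog 2 it had 7.34, 8.28 and 6.73 CPM in samples 1, 2 and 3, against 7.87 CPM in the basal library. The insulin libraries of dogs 3 and 4 were thus below their basal partners, and those of dog 2 lay on both sides of theirs.

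The log2 fold change of ESRRG was -0.31 ± 0.21 (SE; edgeR adjusted p = 1), with a 95% interval of -0.75 to 0.14. It was -0.16 without the basal library of dog 3. Its 2 highest libraries were samples 1 and 3 of dog 1, with 14.4 and 12.9 CPM, and sample 2 of the same dog had 7.30 CPM. The slow fibre myosin MYH7 had 9424, 3491 and 7520 CPM in samples 1, 2 and 3 of dog 1, so these libraries also differed in a fibre marker, whose part was not tested.

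NRF1 (ENSCAFG00000001507) was scarce, with 56 to 151 counts per library. It averaged 1.84 ± 0.494 CPM in insulin libraries (SD, n = 10) and 1.75 ± 0.181 CPM in basal libraries (SD, n = 3), and its log2 fold change was 0.06 ± 0.31 (SE; edgeR adjusted p = 1). Both libraries of sample 3, with 1.42 CPM in dog 1 and 0.958 CPM in dog 2, lay below the basal range of 1.59 to 1.95 CPM. Dog 2 sample 1, with 1.44 CPM, also lay below that range.

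TFAM (ENSCAFG00000012315) varied least of the 10, with an SD of 0.18 on the log2(CPM + 0.5) scale, and 92.2% of genes tested had a larger one. It averaged 14.0 ± 1.91 CPM in insulin libraries (SD, n = 10) and 13.1 ± 1.47 CPM in basal libraries (SD, n = 3). Its log2 fold change was 0.03 ± 0.17 (SE; edgeR adjusted p = 1) with a 95% interval of 0.796 to 1.31 for the fold. The highest TFAM level, 17.1 CPM, was in dog 1 sample 2. Of the genes carried by mitochondrial DNA, the 13 matched by symbol took 0.285% of the counts in that library, the lowest share of all. They took up to 1.49% in others.

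**Figure D2:**
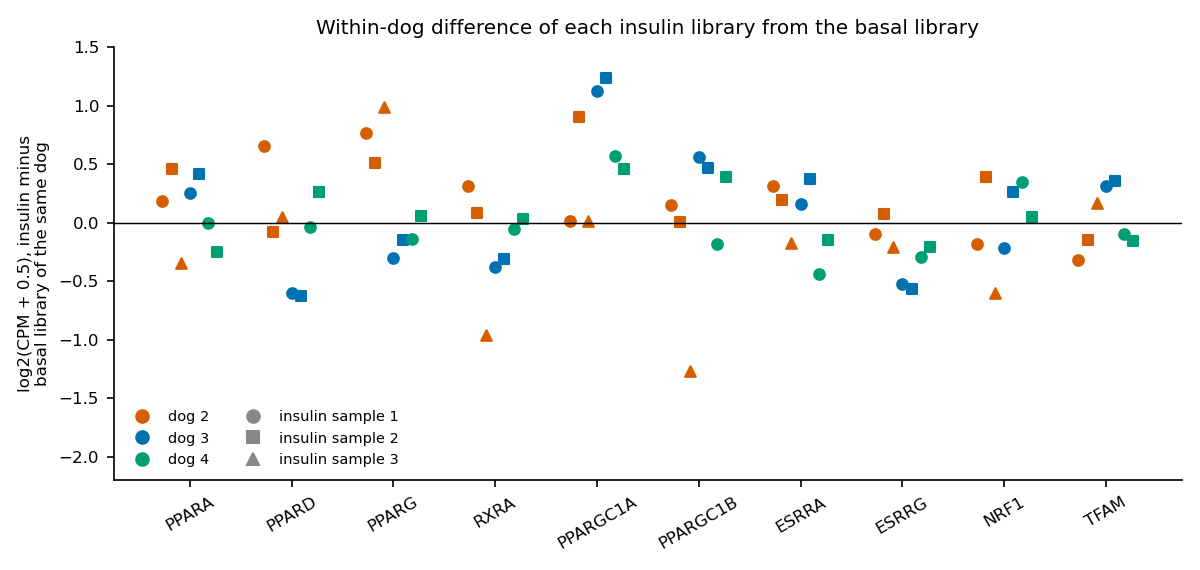
Difference of each of the 7 paired insulin libraries from the basal library of the same dog, on the log2(CPM + 0.5) scale, by dog (colour) and sample number (shape). All 7 points of PPARGC1A lie above 0, 2 of them at 0.01 and 0.02, and 6 of 7 points of ESRRG lie below 0.

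As a set, 0 of the 10 regulators were called higher and 0 lower with insulin (edgeR, adjusted p under 0.05), where 0.137% of the genes tested were called (0.0273% higher and 0.109% lower). DESeq2 also called 0 of the 10, and 104 genes over all genes. At an unadjusted p under 0.05 edgeR had 1 of the 10, PPARGC1A, against 4.12% of all genes. Of the 10, 7 had a positive and 3 a negative log2 fold change, and the median was 0.05, against 0.00 over all genes tested.

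Sample 1 against sample 0 gave 0 of 10 called by edgeR and 0 by DESeq2. Over all genes edgeR called 0% and DESeq2 called 40 genes. With edgeR, 1 of 10 had an unadjusted p under 0.05, against 2.99% of genes. Sample 2 against sample 0 gave 0 of 10 by either tool. Over all genes edgeR called 0.0479% (0.0137% higher and 0.0342% lower) and DESeq2 called 73 genes. With edgeR, 1 of 10 had an unadjusted p under 0.05, against 4.95% of genes. In both, that gene was PPARGC1A. Sample 2 against sample 1 gave 0 of 10 by either tool. Over all genes edgeR called 0% and DESeq2 called 0 genes. With edgeR, 0 of 10 had an unadjusted p under 0.05, against 3.38% of genes. Standard errors of the 10 log2 fold changes ran from 0.17 for TFAM to 0.47 for RXRA in insulin against basal.

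**Figure D3:**
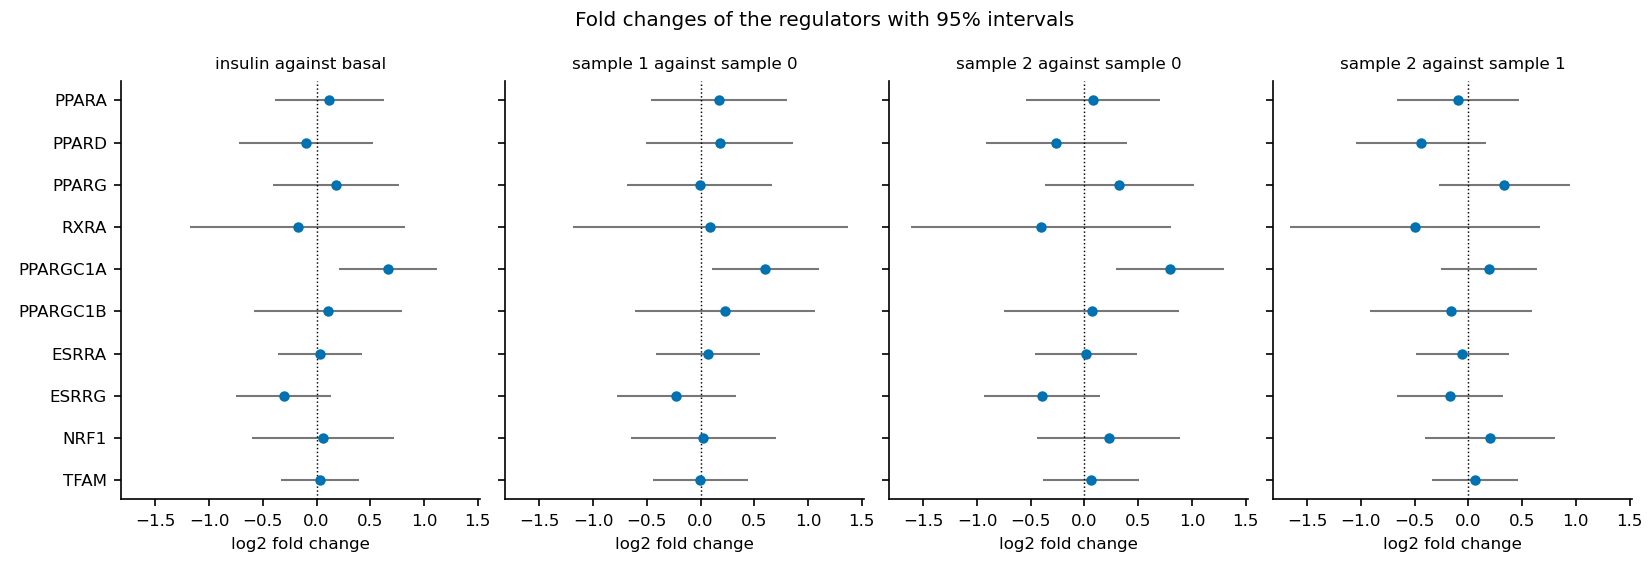
Log2 fold changes of the 10 regulators in the 4 comparisons, as points with 95% intervals that are not adjusted for the number of genes. PPARGC1A is the only regulator with intervals off 0, which it has in the 3 comparisons with basal libraries (log2 fold changes of 0.67, 0.60 and 0.80), and RXRA has the widest interval in each panel.

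Some of the regulators varied together or in opposite directions over the 13 libraries, which come from 4 dogs and share library scaling. PPARA and PPARGC1B had a Pearson r of 0.76 on the log2(CPM + 0.5) scale, and 0.73 without dog 1 sample 2 and dog 2 sample 3. PPARGC1B and RXRA had 0.75 and then 0.44, and ESRRA and RXRA had 0.73 and then 0.12, both lower without those 2 libraries. TFAM and RXRA had -0.71 and then -0.50, PPARG and RXRA had -0.59 and then -0.32, and PPARG and PPARGC1B had -0.57 and then -0.30. PPARD and RXRA had 0.18 and then 0.89, higher without them. PPARGC1A and TFAM had an r of 0.42, and PPARGC1A and PPARGC1B had 0.14.

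Among 8428 genes with a symbol and a mean log2 CPM of at least 1, those whose pattern was most like PPARGC1A over the 13 libraries were FASTKD1 (r = 0.96), a mitochondrial RNA-binding protein, and SLC25A30 (r = 0.93), a carrier of the inner mitochondrial membrane. The glucose transporter SLC2A1 (r = 0.89), GLIPR1 (r = 0.88) and TENT5B (r = 0.83) followed. Of these, 0 passed the threshold in insulin against basal. SLC25A30 had a log2 fold change of 0.88 ± 0.21 (SE; edgeR adjusted p = 0.204) and FASTKD1 had 0.36 ± 0.17 (SE; edgeR adjusted p = 1). For PPARG the most alike were DHRS11 (r = 0.86), GSTA4 (r = 0.82), NSMCE4A (r = 0.82), TMEM50A (r = 0.81) and SRI (r = 0.81), none of them on the fat cell list.

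Genes known to be switched on by PPARs included 2 that fell with insulin. Of 26 tested, 0 were called higher and 2 lower, and the median log2 fold change was 0.04, against 0.00 over all genes tested. PDK4, the kinase that shuts off pyruvate dehydrogenase, had 31.4 to 375 CPM in insulin libraries and 1191, 1513 and 2572 CPM in the basal libraries of dogs 2, 3 and 4. It fell with a log2 fold change of -3.55 ± 0.37 (SE; edgeR adjusted p = 0.00187), in 7 of 7 paired libraries (3.44% of genes tested). ANGPTL4, a secreted inhibitor of lipoprotein lipase, fell by 2.74 on the log2 scale (edgeR adjusted p = 0.0217), to 4.88 ± 2.67 CPM in insulin libraries (SD, n = 10) against 6.25 to 56.8 CPM in basal libraries (n = 3). The groups of ANGPTL4 overlapped, and its call was lost when any 1 of the 6 libraries of dogs 3 and 4 was left out. With the insulin libraries summed per dog neither gene was called, and with no term for the dog PDK4 was not.

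CPT1A, which lets fatty acids into mitochondria, and UCP3, the muscle uncoupling protein, had lower levels in 7 of 7 paired libraries. That held for 3.44% of genes tested. Neither gene passed in the main edgeR fit. Both were called with DESeq2 and with edgeR with no filter on low counts, and UCP3 also with edgeR without dog 1 sample 2. CPT1A had 0.987 to 2.33 CPM in insulin libraries and 3.23, 7.11 and 3.81 CPM in the basal libraries of dogs 2, 3 and 4 (log2 fold change -1.35 ± 0.28, edgeR adjusted p = 0.110). UCP3 had 85.5 to 211 CPM in insulin libraries and 284, 399 and 475 CPM in the basal libraries of dogs 2, 3 and 4 (mean 170 ± 42.9 CPM in insulin and 386 ± 96.1 CPM in basal libraries, SD, n = 10 and 3, edgeR adjusted p = 0.154). Insulin and basal libraries of these 2 genes did not overlap, which held for 0.93% of genes tested and for 0 of the 10 regulators.

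Genes switched on by PGC-1 and estrogen-related receptors had 0 of 21 called in either direction in the main edgeR fit. Their median was 0.08, against -0.0013 over all genes tested, and 17 of 21 had a positive log2 fold change. The growth factor VEGFA had 1.05 ± 0.39 (SE; edgeR adjusted p = 0.915) and the mitochondrial creatine kinase CKMT2 had 0.18 ± 0.18 (SE; edgeR adjusted p = 1). With edgeR VEGFA was called with no filter on low counts and without dog 1 sample 2 and dog 2 sample 3 together, a choice made after seeing the data. VEGFA was higher in 7 of 7 paired libraries, which held for 2.69% of genes tested, and CKMT2 was higher in 5 of 7. These 7 pairs share 3 basal libraries. ATP1B1, a sodium pump subunit, had -0.18 ± 0.23 (SE; edgeR adjusted p = 1).

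Other partner receptors of RXR and relatives of the 10 had 0 of 12 called. RARB, a retinoic acid receptor, had the lowest p, with 8.71 to 16.6 CPM in insulin libraries and 5.37, 7.73 and 6.19 CPM in the basal libraries of dogs 2, 3 and 4. Its log2 fold change was 0.98 ± 0.20 (SE; edgeR adjusted p = 0.106). RARB was higher in 7 of 7 paired libraries, which held for 2.69% of genes tested. It was called with DESeq2, with no filter and without dog 1 sample 2. The oxysterol receptor NR1H3 had 0.54 ± 0.28 and RARA had 0.39 ± 0.33 (SE). RXRG, the muscle form of the retinoid X receptor, had 70.1 ± 12.2 CPM in insulin libraries (SD, n = 10) and 79.7 ± 22.9 CPM in basal libraries (SD, n = 3), a log2 fold change of -0.21 ± 0.15 (SE; edgeR adjusted p = 1).

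Coactivators and corepressors had 0 of 18 called with insulin and a median of -0.01. The acetyltransferase CREBBP averaged 9.16 ± 2.74 CPM in insulin libraries (SD, n = 10) and 16.1 ± 4.77 CPM in basal libraries (SD, n = 3). Its log2 fold change was -0.80 ± 0.30 (SE, edgeR adjusted p = 0.915). In sample 2 against sample 0 CREBBP was called with DESeq2 and with edgeR with no filter on low counts, and not in the main fit. PERM1, a muscle protein induced by PGC-1 and estrogen-related receptors, had 0.50 ± 0.26 (SE; edgeR adjusted p = 1), higher in 6 of 7 paired libraries. The corepressor NRIP1 had -0.50 ± 0.25 and the coactivator NCOA1 had 0.43 ± 0.26 (SE; edgeR adjusted p = 1 for both). In sample 2 against sample 1 the list had a median of -0.35, with 17 of 18 negative and 0 called, against -0.02 over all genes tested. Without dog 1 sample 2 its median was -0.11, with 12 of 18 negative. Smooth muscle and pericyte markers were negative for 9 of 9 and endothelial markers for 10 of 10 in that comparison, with medians of -0.57 and -0.47, and their part was not tested.

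Inputs to PGC-1alpha had 0 of 17 called and a median of 0.02. FLCN, which restrains PGC-1alpha in mouse muscle, had 0.44 ± 0.20 (SE; edgeR adjusted p = 1), higher in 7 of 7 paired libraries (2.69% of genes tested). Its partner FNIP1 had -0.68 ± 0.36, the calcium-dependent kinase CAMK2A had -0.37 ± 0.33 and the muscle transcription factor MEF2D had -0.47 ± 0.40 (SE; edgeR adjusted p = 1 for all 3).

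Factors that copy and transcribe mitochondrial DNA beside TFAM had 0 of 17 called and a median of 0.06, with log2 fold changes of 0.25 ± 0.18 for MTERF3, -0.20 ± 0.16 for the polymerase subunit POLG2, 0.19 ± 0.20 for TOP3A and 0.19 ± 0.21 for MTERF2 (SE; edgeR adjusted p = 1 for all 4). Partners and targets of NRF1 and of the related factor GABP had 0 of 13 called and a median of 0.04. The oxidative stress factor NFE2L2 had 0.32 ± 0.19, ALAS1, the first enzyme of haem synthesis, had 0.24 ± 0.22, the import factor TOMM34 had 0.15 ± 0.15 and the general factor SP1 had -0.27 ± 0.22 (SE; edgeR adjusted p = 1 for all 4).

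**Figure D4:**
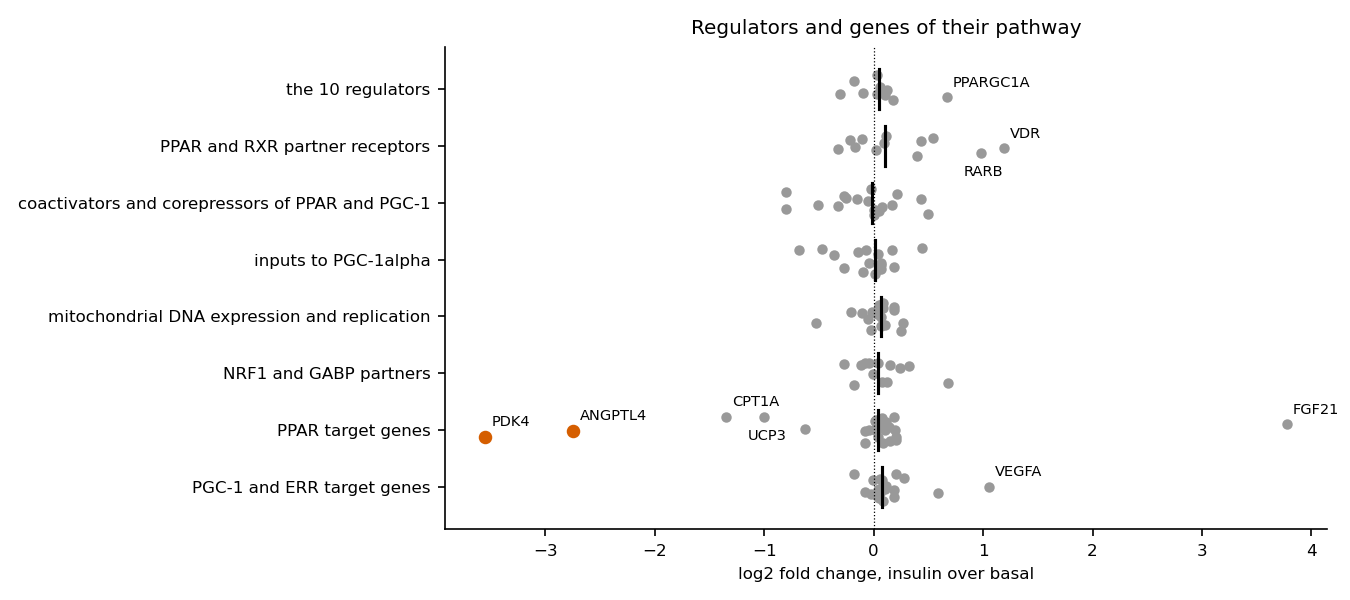
Log2 fold changes of insulin over basal libraries for the 10 regulators and for 7 lists of their pathway, each dot a gene, orange where the adjusted p was under 0.05 and black bars at list medians. PDK4 (-3.55) and ANGPTL4 (-2.74) are the only orange dots, while list medians lie between -0.01 and 0.10. FGF21, at the far right, had at most 46 counts in a library.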

How the data were processed

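The values used were raw read counts per gene, whole numbers that the authors deposited in 1 matrix, per the file headers. The same table held a normalized signal that the authors made by dividing each count by 1 size factor per library. It was checked against the median of ratios and not used further. Per the submitters' processing notes the tools and build include Bowtie 0.12.2 and CanFam3.1. The counting program, the annotation and the strand setting are not given in the sources used here, and per the labels' protocols cDNA was made with SMARTseq and adaptors added with Nextera XT, kits that do not mark strand. In the RefSeq table of UU_Cfam_GSD_1.0, PPARGC1A, PPARGC1B, ESRRG, NRF1 and TFAM overlap another gene, whose reads could enter their counts. The design text of the series names another organism and tissue, and the sample labels were followed.

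The counts entered edgeR 4.0.16 under R 4.3.3 (filterByExpr, TMM scaling, robust quasi-likelihood fits, Benjamini-Hochberg adjustment over 14629 genes, threshold 0.05), with dog and stimulation, or dog and sample number, as terms. Alternatives were DESeq2 1.42.0, its size factors, no filter on low counts, no term for the dog, insulin libraries summed per dog and each library left out. Dog 1 had no basal library and entered insulin against basal only through the spread. Beyond the dog term no link between libraries of a dog was modelled, and p-values measure the spread between these libraries. Dog numbers pair the libraries because they name the animal. Deviations from group means correlated with a median r of 0.19 within a dog (15 library pairs) and -0.07 between dogs (47 pairs). No pair of libraries of 1 group agreed within counting error (chi-square per gene of at least 132).

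The regulators, the 7 pathway lists (127 of 135 symbols found, 124 tested), the marker lists and the models were chosen with earlier results of these data known. Named from each list were up to 4 genes of lowest p with a mean log2 CPM of at least 1, and all genes called. Of these, 1 gene is not reported here. FGF21, VDR, MYH7 and CKM were added after their values were seen. VDR appears in a picture only.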

Additional observations from a re-analysis of the deposited data

Results flagged for a closer look

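PPARA in insulin sample 1 had 11.3 CPM in dog 2, while dogs 1, 3 and 4 had between 7.38 and 7.60 CPM, a gap wide enough to pass Dixon's 95% criterion. It was the 1 such library among 20 groups of 4 libraries examined, and chance flags about 1 in 20 groups. PPARA was also highest in dog 2 in insulin sample 2 (13.8 CPM) and in the basal libraries (9.92 CPM).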

How the results depend on the processing

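Under every alternative run, 0 of the 10 regulators were called in any of the 4 comparisons. PPARGC1A in insulin against basal had a log2 fold change of 0.67 with DESeq2 (adjusted p = 0.264), and with edgeR 0.67 with no filter (adjusted p = 0.152), 0.75 with no replicate block (adjusted p = 0.420) and 0.68 with insulin libraries summed per dog (adjusted p = 0.940). With 1 library left out it ranged from 0.45 to 0.84 (edgeR adjusted p from 0.402 to 1).

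Over all genes, insulin against basal called 20 genes, against 104 with DESeq2, 140 with no filter on low counts, 6 with no replicate block, 1 with insulin libraries summed per dog and 7 to 28 with 1 library left out (7 without the basal library of dog 4, 28 without dog 1 sample 2). Sample 1 against sample 0 called 0, against 4 with DESeq2 size factors, 40 with DESeq2, 16 with no filter and 0 to 8 with 1 library left out. Sample 2 against sample 0 called 7, against 73 with DESeq2, 28 with no filter, 0 with no replicate block and 0 to 12 with 1 library left out. Sample 2 against sample 1 called 0 in every fit. Of the pathway list genes, insulin against basal called 2, against 5 with DESeq2, 6 with no filter, 1 with no replicate block, 0 with summed libraries and 1 to 4 with 1 library left out. Sample 1 against sample 0 called 0 of them, against 1 with DESeq2 size factors, 4 with DESeq2, 1 with no filter and 0 to 2 with 1 left out, and sample 2 against sample 0 called 1, against 5 with DESeq2, 0 with no replicate block and 0 to 2 with 1 left out. The cause of these differences was not tested.

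Some regulators changed sign, and not only those near 0. RXRA in sample 2 against sample 1 was among them, with -0.50 in the main fit. With no replicate block, insulin against basal gave 0.29 for PPARD and -0.030 for ESRRA, sample 1 against sample 0 gave 0.035 for ESRRG and 0.051 for TFAM, and sample 2 against sample 0 gave -0.025 for ESRRA. Leaving out dog 1 sample 2 and dog 2 sample 3 together was chosen after seeing the data. It called 42 genes and 5 list genes in insulin against basal, 5 genes in sample 1 against sample 0 and 0 list genes in sample 2 against sample 0. It gave -0.020 for TFAM in insulin against basal, 0.12 for PPARG, -0.0088 for NRF1 and -0.050 for RXRA in sample 1 against sample 0, and 0.062 for PPARA, 0.095 for PPARGC1B, 0.11 for ESRRA and 0.067 for ESRRG in sample 2 against sample 1.

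With 1 library left out, insulin against basal ranged over -0.28 to 0.20 for PPARD, -0.14 to 0.41 for PPARG, -0.073 to 0.33 for PPARGC1B, -0.070 to 0.19 for ESRRA, -0.077 to 0.16 for NRF1 and -0.10 to 0.11 for TFAM. Sample 1 against sample 0 ranged over -0.053 to 0.51 for PPARD, -0.32 to 0.22 for PPARG, -0.032 to 0.24 for ESRRA, -0.19 to 0.16 for NRF1, -0.14 to 0.11 for TFAM and -0.15 to 0.32 for RXRA. Sample 2 against sample 0 ranged over -0.15 to 0.22 for PPARA, -0.56 to 0.064 for PPARD, -0.18 to 0.28 for PPARGC1B, -0.11 to 0.18 for ESRRA and -0.088 to 0.14 for TFAM. Sample 2 against sample 1 ranged over -0.31 to 0.14 for PPARA, -0.00020 to 0.54 for PPARG, -0.36 to 0.20 for PPARGC1B, -0.20 to 0.14 for ESRRA, -0.34 to 0.060 for ESRRG, -0.036 to 0.12 for TFAM and -0.82 to 0.063 for RXRA. In insulin against basal the range was 0.016 to 0.24 for PPARA, -0.43 to -0.16 for ESRRG and -0.28 to -0.057 for RXRA. Libraries alone in a group were assumed to vary like the others. NRF1 and RXRA had the fewest counts of the regulators, with as few as 56 and 30 in a library. What part depth had in their spread was not tested.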
